A study of Mus musculus with 2744 samples.

Results

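Day 5 was compared with Day 4 in a single-cell RNA series that followed mouse embryonic stem cells on Days 2 to 6 of their differentiation into motor neurons. The comparison took every plate labelled with either day, which gave 832 of the 2744 cells of the series on 11 of its 35 plates. The series holds 2 experiments, labelled main and pilot. Day 4 was sampled on 3 main and 2 pilot plates, and Day 5 on 4 main and 2 pilot plates. All of these cells had gone through the same differentiation method and differed, per the labels, only in sampling day and experiment. No drug, strain or sort on a reporter is named for either group, while some Day 6 plates outside this comparison carry an eGFP label. Embryoid bodies were dissociated with papain, single cells were sorted into wells, and the RNA of each cell was barcoded, amplified by in vitro transcription and read by a modified CEL-seq method, which reads the 3′ ends of polyadenylated RNA. Cells with reads on 500 or more genes were kept, 691 of the 832.

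In the ventral spinal cord, progenitors that express Olig2 give rise to motor neurons. The basic helix-loop-helix (bHLH) factor Neurog2 commits a progenitor to the neuronal fate, and the LIM-homeodomain factor Isl1 is switched on in the newborn motor neuron. The committed cell signals to its neighbours through Notch ligands, leaves the cell cycle and builds an axon from tubulins, stathmins and growth cone proteins such as Gap43. In culture, retinoic acid and activation of Hedgehog signalling bring embryonic stem cells to this ventral spinal identity.

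The plate was the unit of replication. Reads were summed over the kept cells of a plate, which gave 10362454 to 37190050 reads on genes per plate. A level below is in CPM, the count on a gene per 1000000 counts on all genes, scaled between plates by the trimmed mean of M-values. A change is the fitted log2 difference of Day 5 minus Day 4 with the experiment as a block, and a gene is said to rise or fall where edgeR's quasi-likelihood test gave a Benjamini-Hochberg adjusted p under 0.05 over all 12163 genes tested. Plates of an experiment may share a culture, so these p-values measure only the spread between plates, which may be technical. In a sum over cells, fewer cells of a type and less RNA per cell cannot be told apart. A list median is not a fitted change. It is the median, within an experiment, of log2 ratios of the summed Day 5 to the summed Day 4 level. Sums under 3 reads were set to 3, and members under 3 reads on both days were left out. Where a Day 4 sum was 0, as for Neurog2 in the pilot experiment, the ratio depends on that floor and on depth. A gene could pass the filter on low counts through the plates of a single day.

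The plates were not alike in quality. Between 51 and 91 of 96 wells were kept on the main plates and between 24 and 38 of 40 on the pilot plates, with the largest losses on main Day 4 plate 3 (46.9% of wells) and pilot Day 4 plate 1 (40% of wells). The median cell had 2674 to 3378 detected genes on the main Day 4 plates and 3492 to 4246.5 on the main Day 5 plates, against 1292 and 1409 on the pilot Day 4 plates and 3488 and 2602 on the pilot Day 5 plates. The mean of the 2 within-experiment differences was 1177.6 genes more on Day 5 (two-sided exact permutation test of the day labels within experiments, p = 0.00476, adjusted p = 0.00952 over 2 quality measures). The share of reads on spike-in RNA did not pass the same test: its differences of -0.256 percentage points for main and 4.76 for pilot plates had a mean of 2.25 (p = 0.205, exact permutation test). A single cell gave 41.2% of the gene reads of pilot Day 4 plate 1 and another gave 23.7% of those of main Day 5 plate 2.

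Of the 12163 genes tested, 38 (0.312%) passed, 25 rises (0.206%) and 13 falls (0.107%). The unadjusted p was under 0.05 for 1284 genes. The main experiment alone, fitted without the pilot plates, called 2.58% of 12861 genes (1.45% rises and 1.14% falls), and these held all 38. The pilot experiment alone, with 2 plates against 2, called none by edgeR, with 1425 genes at an unadjusted p under 0.05. The changes of the 2 experiments differed, in a day by experiment term added after the data were seen, for 884 genes (7.27%), so that the values of each experiment are given side by side below. Of the 38 genes, 37, all but Stmn4, moved in the same direction in both experiments, and 36, all but Stmn4 and Fabp3, had no overlap between the Day 4 and Day 5 plates of either experiment. Among all tested genes, such a separation held upward for 4.42% and downward for 1.78%, and the summed level was higher on Day 5 in both experiments for 29.1% and lower in both for 25.2%.

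**Figure D1:**
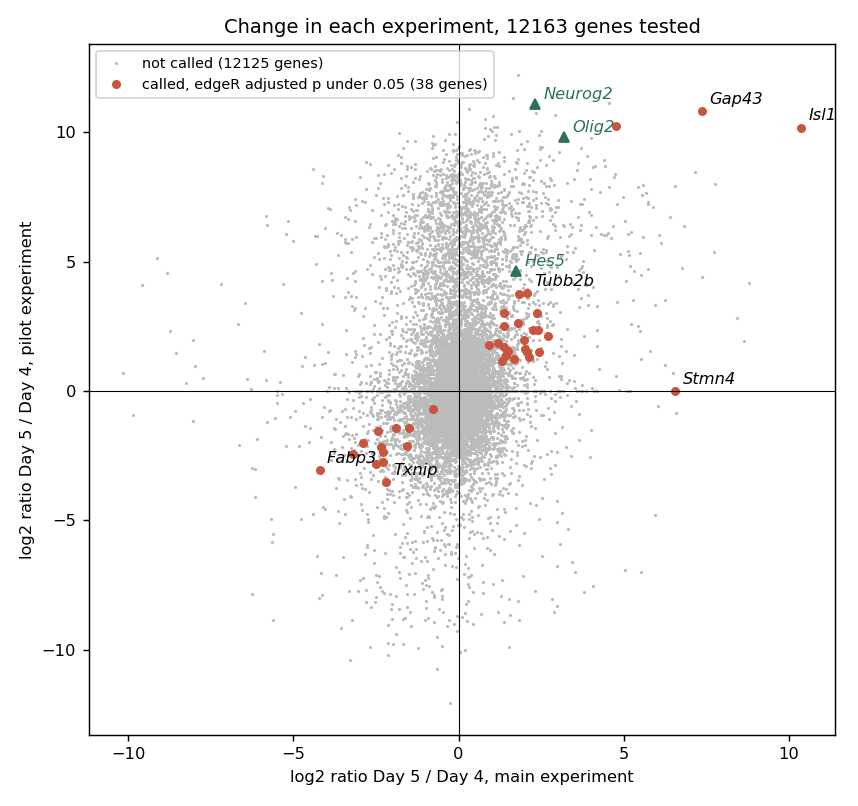
Each point is 1 of 12163 genes: the log2 ratio of the summed Day 5 to the summed Day 4 level in the main experiment (x axis) and in the pilot experiment (y axis), with 38 genes that passed edgeR's test drawn larger. Isl1 and Gap43 lie at the upper right in both experiments, Neurog2, Olig2 and Hes5 (triangles) lie higher in the pilot than in the main experiment and did not pass, and Stmn4 lies at 0 on the pilot axis.

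The call of a single gene depended on the plates. With each of the 11 plates left out in turn, Isl1, Ckb, Txnip, Fabp5 and Scd2 were called in every fit, and 8 further genes (Gap43, Tubb2b, Cotl1, Apoe, Sfmbt2, Grb7 and Pmm1 among them) lost their call only without main Day 4 plate 2, at an adjusted p of 0.0503 to 0.0678. The other 25 lost it without at least 2 of the plates taken singly. Without main Day 4 plate 2 the count of calls was 5, and without pilot Day 4 plate 2 it was 82. In the 684 of 691 cells with at least 10000 reads, each thinned to that number, 2.25% of 6930 genes were called and 35 of the 38 were among them. The number of detected genes per cell was also higher on Day 5, and its part in the results was not tested otherwise.

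Isl1 had the largest fitted rise. Its gene lies at chr13:116298281-116309689 (minus strand), in the mm10 build. It had no read on any of the 3 main Day 4 plates, and its levels on the 4 main Day 5 plates were 55.3, 100.03, 90.1 and 122.01 CPM. In the pilot experiment it stood at 0.0443 and 0 CPM on Day 4, a single read, and at 34.6 and 87.6 CPM on Day 5. The days did not overlap in either experiment, and the sum of the main Day 5 plates was at least 1329.8-fold above the 3 reads that a count of 0 over the main Day 4 plates allows. The fitted change was 12.28 ± 0.79 (SE) on the log2 scale (edgeR adjusted p = 1.46e-05), a value that rests on the prior count because Day 4 was at 0. The promoter is shown because this gene carries the comparison: it is the 250 bases before the annotated start on the minus strand, chr13:116309689-116309938 (GRCm38.p6, RefSeq), read toward the gene, with matches to 2 motifs in capitals.

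Isl1: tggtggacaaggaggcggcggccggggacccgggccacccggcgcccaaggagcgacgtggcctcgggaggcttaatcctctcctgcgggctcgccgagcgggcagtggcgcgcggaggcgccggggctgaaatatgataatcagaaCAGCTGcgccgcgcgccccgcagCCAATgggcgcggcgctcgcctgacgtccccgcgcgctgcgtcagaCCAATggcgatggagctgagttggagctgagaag

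The motifs searched on both strands, in RefSeq windows of the same length, were the E-boxes CAGCTG and CAGATG, which bHLH factors are known to bind, the box CCAAT, and TCACNCCAC, the core of a sterol element. CAGCTG stands in 14.72%, CAGATG in 16.31%, CCAAT in 37.49% and TCACNCCAC in 1.225% of the 27025 genes with such a window. In the Isl1 window CCAAT begins 80 and 34 bases before the start, and CAGCTG lies farther upstream. These are matches of letters, not measured sites.

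Motor neuron factors and genes formed a list of 27, of which 21 were tested, 1 rose and none fell (0.206% and 0.107% of all tested genes). The median log2 ratio over the 21 was 2.49 (main experiment) and 5.05 (pilot), against -0.02 and 0.20 over all tested genes. In both experiments, 11 of the 21 had all Day 5 plates above all Day 4 plates (4.42% of all tested genes). A member at 0 on every Day 4 plate, as Lhx4 was, could be tested only through Day 5, which raises the medians and this count. Lhx3, the LIM factor that acts with Isl1 in motor neurons, was at 10.5, 1.87 and 0 CPM on the main Day 4 plates and at 38.8, 26.3, 56.2 and 40.1 on the main Day 5 plates. In the pilot experiment Lhx3 had no read on Day 4 and 14.3 and 43.7 CPM on Day 5. Lhx3 did not pass (4.85 ± 1.61, edgeR adjusted p = 0.282), although no Day 5 plate lay within the range of Day 4.

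Of the motor neuron genes Slc18a3, Lhx4 and Chat, none was above 14.5 CPM on any Day 4 or Day 5 plate. Slc18a3, the vesicular acetylcholine transporter, had 0, 0 and 0.462 CPM on the main Day 4 plates against 3.52, 13.7, 12.1 and 14.5 on Day 5, and 0 on both pilot Day 4 plates against 10.7 and 12.5 (edgeR adjusted p = 0.0893). Lhx4 was at 0 on all 5 Day 4 plates and between 0.447 and 10.5 CPM on the 6 Day 5 plates (edgeR adjusted p = 0.0857). Chat, the acetylcholine-synthesising enzyme, stayed under 3 CPM on every plate of both days. Mnx1, a defining motor neuron factor, overlapped between the days, with 1.37, 4.79 and 0 CPM on the main Day 4 plates and 2.29, 7.72, 12.5 and 2.82 on the main Day 5 plates (0.68 ± 1.66, edgeR adjusted p = 0.915).

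Neurog2 was higher on Day 5 on every plate and did not pass the test of both experiments together. Its levels were 14.1, 14.4 and 56.2 CPM on the main Day 4 plates and 93.5, 118.6, 143.3 and 136.6 CPM on the main Day 5 plates, with no overlap. In the pilot experiment it had no read on either Day 4 plate and 77.7 and 142.2 CPM on Day 5, at least 2167.8-fold above the 3 reads that a count of 0 over both plates allows. Main Day 4 plate 3, the plate with the most wells left out, stood at 56.2 CPM and so above the other Day 4 plates. The joint change was 3.81 ± 1.43 (edgeR adjusted p = 0.355), and its size differed between the experiments (adjusted p of the day by experiment term = 0.00216). Within the main experiment alone the rise passed, at an edgeR adjusted p of 0.0445 over 12861 genes. Its gene lies at chr3:127633135-127635631 (plus strand), and the 250 bases before its start (chr3:127632886-127633135, plus strand, GRCm38.p6, RefSeq) are printed for comparison with Isl1. None of the 4 motifs stands in this window.

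Neurog2: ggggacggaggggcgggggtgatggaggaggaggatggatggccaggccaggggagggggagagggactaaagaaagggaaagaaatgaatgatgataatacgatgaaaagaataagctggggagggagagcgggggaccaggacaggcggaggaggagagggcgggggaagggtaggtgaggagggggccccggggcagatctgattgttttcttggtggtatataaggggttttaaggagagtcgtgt

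Proneural and early neurogenic factors, the group to which Neurog2 belongs, had 22 of 30 members tested. None rose or fell in the joint fit, in which 9 of the 22 differed between experiments (7.27% of all tested genes did). In both experiments 17 of the 22 were higher on Day 5 (29.1% of all tested genes were). The median log2 ratio was 1.30 (main experiment) and 5.39 (pilot). Sox11, an activator of neuronal genes, was at 195.6, 196.02 and 354.5 CPM on the main Day 4 plates and at 522.03, 629.8, 644 and 664 on the main Day 5 plates, and at 172.7 and 49.98 against 325.04 and 532.6 in the pilot experiment. Sox11 missed the threshold (1.54 ± 0.32, edgeR adjusted p = 0.0661) without overlap between the days. Tcf4, which encodes a dimer partner of proneural factors, gave 1.49 ± 0.33 (edgeR adjusted p = 0.0893), and Nhlh2, a bHLH factor of young neurons, 4.42 ± 1.48 (edgeR adjusted p = 0.292).

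On the list for the Notch pathway, through which a committed cell holds back its neighbours, no gene passed. Of 19 ligands, receptors and modifiers, all tested, 12 were higher on Day 5 in both experiments and 3 were lower in both. Among all tested genes these shares were 29.1% and 25.2%. The median log2 ratio was 0.62 (main experiment) and 2.97 (pilot). The ligand gene Dll3 was at 7.68, 6.98 and 12.001 CPM on the main Day 4 plates and 27.8, 30.2, 45.8 and 46.4 on the main Day 5 plates, and passed within the main experiment (edgeR adjusted p = 0.0182) but not in the joint fit (0.413). Mfng, a glycosyltransferase that modifies Notch receptors, showed the same pattern (edgeR adjusted p = 0.0433 in the main experiment and 0.353 jointly), with 8.92, 22.4 and 24.001 CPM on the main Day 4 and 39.4, 68.4, 88.4 and 65.01 on the main Day 5 plates. The receptor gene Notch1 overlapped between the days in the main experiment (20.9, 31.7 and 81.97 CPM against 39.03, 78.4, 87.8 and 89.4, joint edgeR adjusted p = 0.407).

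The Hes, Hey and Id repressors that act downstream had 9 of 12 members tested, none called, and medians of -0.12 (main experiment) and 1.203 (pilot). Hes5, a direct Notch target, covered a wide range within Day 4, from 96.8 to 545.1 CPM on the main plates, and overlapped with the 502.1 to 1052 CPM of the main Day 5 plates (edgeR adjusted p = 0.194). Main Day 4 plate 3 was the high one here too. Nrarp, a feedback inhibitor of Notch, was at 8.28, 4.17 and 3.60 CPM on the main Day 4 and 49.4, 40.5, 79.4 and 35.6 on the main Day 5 plates, without overlap, and passed in the main experiment alone (edgeR adjusted p = 0.00583; 0.173 jointly). Id4 went from at most 1.25 CPM on the 5 Day 4 plates to between 4.08 and 24.9 CPM on the 6 Day 5 plates (edgeR adjusted p = 0.147).

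**Figure D2:**
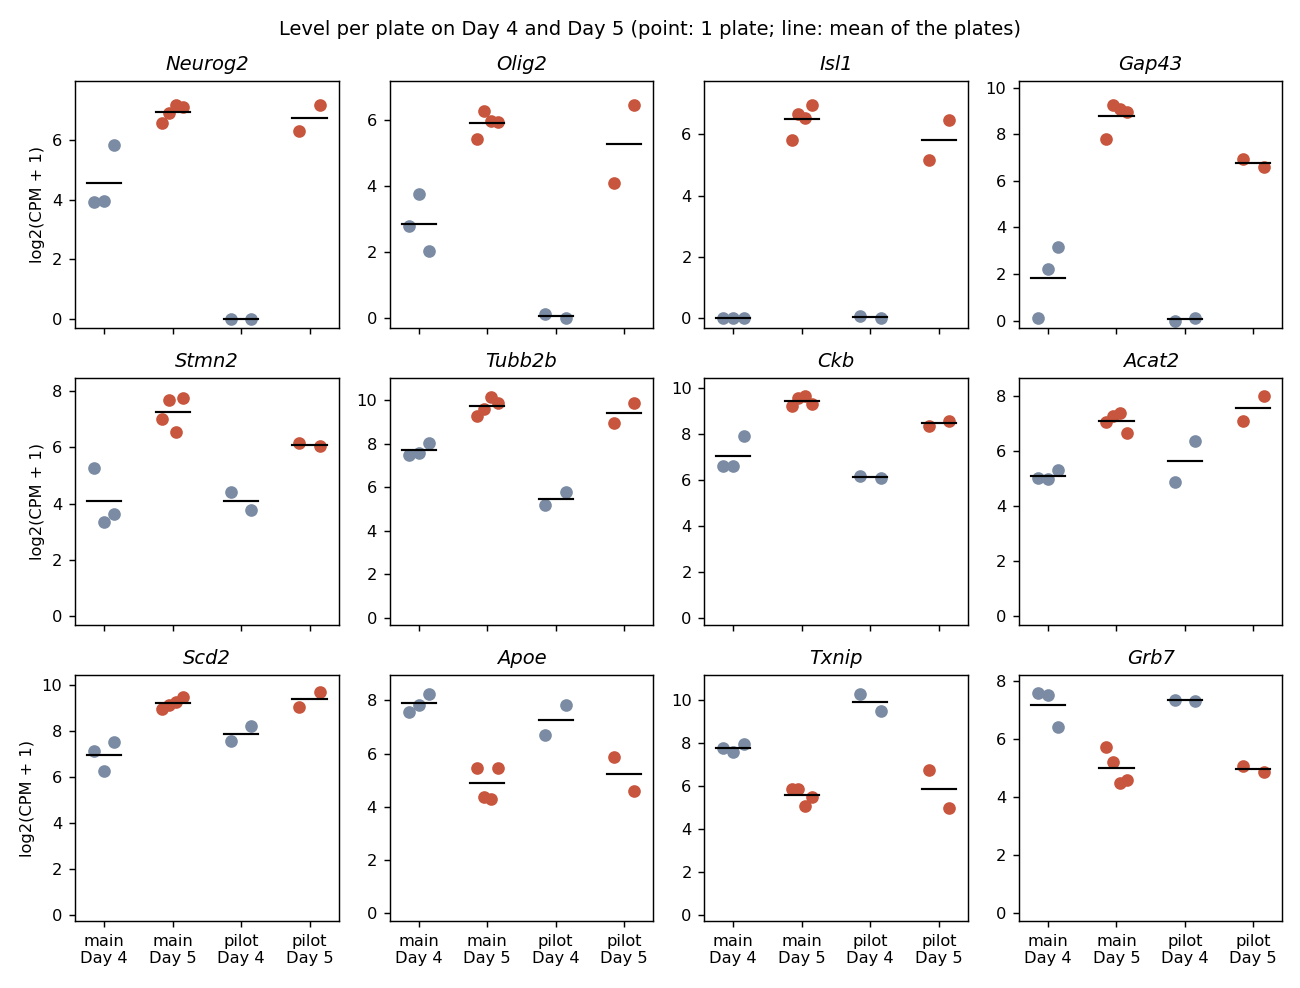
Level of 12 genes as log2(CPM + 1) on the y axis, 1 point per plate, for main and pilot plates of Day 4 (blue) and Day 5 (red), with a line at the mean of the plates. In each panel the Day 5 points lie to one side of the Day 4 points within both experiments, and Neurog2 and Olig2 start from a higher Day 4 level in the main than in the pilot experiment.

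Olig2, which marks the motor neuron progenitor, was likewise higher on every Day 5 plate. It was at 5.93, 12.5 and 3.05 CPM on the main Day 4 plates and 42.4, 76.7, 61.8 and 61.2 on the main Day 5 plates, and in the pilot experiment at 0.0885 and 0 against 16.1 and 87.1. The days were apart in both experiments, the joint fit gave 4.64 ± 1.26 (edgeR adjusted p = 0.181), and the main experiment alone passed (edgeR adjusted p = 0.00954). Its neighbour Olig1 was at 2.26, 2.92 and 0 against 39.8, 32.3, 60.3 and 37.96 CPM in the main experiment (edgeR adjusted p = 0.0220 there and 0.197 jointly).

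The list of ventral progenitor factors and Hedgehog response genes had 18 of 21 members tested, none called, and medians of 0.63 and 1.40. Floor plate genes had 6 of 9 tested, none called, with medians of -0.19 and -0.995. Of these, Slit2, a secreted axon guidance factor, went from 1.96, 0.312 and 4.89 to 53.9, 56.5, 43.6 and 103.3 CPM in the main experiment but overlapped in the pilot, with 9.47 and 66.8 against 78.5 and 52.9 CPM (joint edgeR adjusted p = 0.238). Spon1 and Sulf1, which encode extracellular proteins, pointed the other way without passing: Spon1 had 18.8, 8.64 and 46.2 against 6.32, 4.87, 6.18 and 14.6 CPM in the main experiment and 28.3 and 10.6 against 3.19 and 0 in the pilot (-2.34 ± 1.05, edgeR adjusted p = 0.460). Sulf1 had 2.47, 2.50 and 9.23 against 1.23, 1.31, 0.772 and 0.513 CPM and 6.55 and 9.74 against 0.867 and 0 (-3.00, edgeR adjusted p = 0.403). It was the only one of the 6 without overlap in both experiments (1.78% of all tested genes were apart downward).

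Neural progenitor and radial glia genes, 16 of 18 tested, had no call and medians of 1.32 and 1.57. Sox9, a progenitor factor, went from 20.05, 3.12 and 7.48 to 172.7, 142.4, 152.7 and 201.7 CPM in the main experiment (edgeR adjusted p = 0.00583 there) and from 2.12 and 0 to 6.12 and 8.58 in the pilot (joint 0.105). Vim, an intermediate filament of progenitors, was at 168.7, 182.9 and 549.4 CPM on the main Day 4 plates and 681, 917, 785 and 895 on the main Day 5 plates (edgeR adjusted p = 0.0637). Fabp7, a lipid carrier of radial glia, gave 5.51 ± 1.46 (edgeR adjusted p = 0.164).

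How many cells carried each gene was counted apart from the reads. Isl1 was read in 0 of the main Day 4 cells, which allows a share of up to 1.32%, and in 34.9% of the main Day 5 cells (95% Wilson interval 30.01 to 40.2%). In the pilot experiment it was read in 1 of 57 cells on Day 4 and in 13 of 75 on Day 5, 17.3% (10.4 to 27.4%). Day 2 cells, which precede neurogenesis, set the background at 2.77% (main) and 2.67% (pilot), with median reads per cell of 90621.5 to 292927 on the main and 533619 and 759057 on the pilot Day 2 plates, against 117004 to 184844 and 463708 and 884936 on the Day 5 plates. These reads carry no molecular identifiers, so intervals and limits cover counting error only, with no spread between plates.

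Neurog2 was read in 20 main Day 4 cells (8.81%) and in 50.6% of the main Day 5 cells (interval 45.2 to 55.9%), and in 0 of 57 pilot Day 4 cells, which allows up to 5.26%, against 16 of 75 (21.3%, 13.6 to 31.9%). The Day 2 shares were 0.554% and 1.33%. Olig2 went from 8.37% to 50% of cells in the main and from 1.75% to 38.7% in the pilot experiment, with Day 2 shares of 6.37% and 4%. Gap43 went from 3.96% to 74.4% and from 7.02% to 25.3%, with Day 2 shares of 16.6% and 9.33% that were above those of Day 4. Plate by plate, the main Day 4 and Day 5 shares were 0 against 22.5 to 57.5% for Isl1, 6.59 to 10.6% against 43.75 to 60% for Neurog2, 5.88 to 10.99% against 47.5 to 53.4% for Olig2, and 2.35 to 7.84% against 58.75 to 87.5% for Gap43. On the pilot plates they were 4.17 and 0% against 10.5 and 24.3% for Isl1, 0% on both against 5.26 and 37.8% for Neurog2, 4.17 and 0% against 23.7 and 54.05% for Olig2, and 0 and 12.1% against 31.6 and 18.9% for Gap43. The plates of the 2 days thus did not overlap for any of the 4 genes in either experiment.

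The Day 5 shares were also the higher ones at an equal number of reads. With each cell thinned to 10000 reads, the Day 4 and Day 5 shares in the main experiment were 0 and 20.9% for Isl1, 3.10 and 32.2% for Neurog2, 2.21 and 30.7% for Olig2, and 1.33 and 52.1% for Gap43. In the pilot experiment they were 0 and 13.3%, 0 and 16%, 0 and 24%, and 1.75 and 16% in the same order. Equal reads are not equal molecules: the median reads per detected gene were higher on both pilot Day 4 plates than the 81 and 58 on the pilot Day 5 plates. In a fit of the number of cells with a read per plate, 6.01% of 8389 genes rose and 6.62% fell. There Isl1, Gap43, Neurog2 and Olig2 all rose, at edgeR adjusted p values of 7.28e-10, 2.47e-14, 8.41e-09 and 7.92e-10. In that fit 11 of 16 tested proneural factors rose, 6 of 13 Notch genes, 5 of 10 motor neuron genes and 9 of 15 progenitor genes. Falls were seen for 1 of the 13 Notch genes, 3 of 6 endoderm genes and 4 of 6 genes that answer to dissociation. Of 12 pluripotency genes 5 fell and 1 rose, and of 6 Hes, Hey and Id genes 2 rose and 2 fell. This fit is scaled to all detections of a plate, so a gene read in nearly every cell takes a lower value where more genes are detected per cell, and the falls of such genes are not read as changes.

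**Figure D3:**
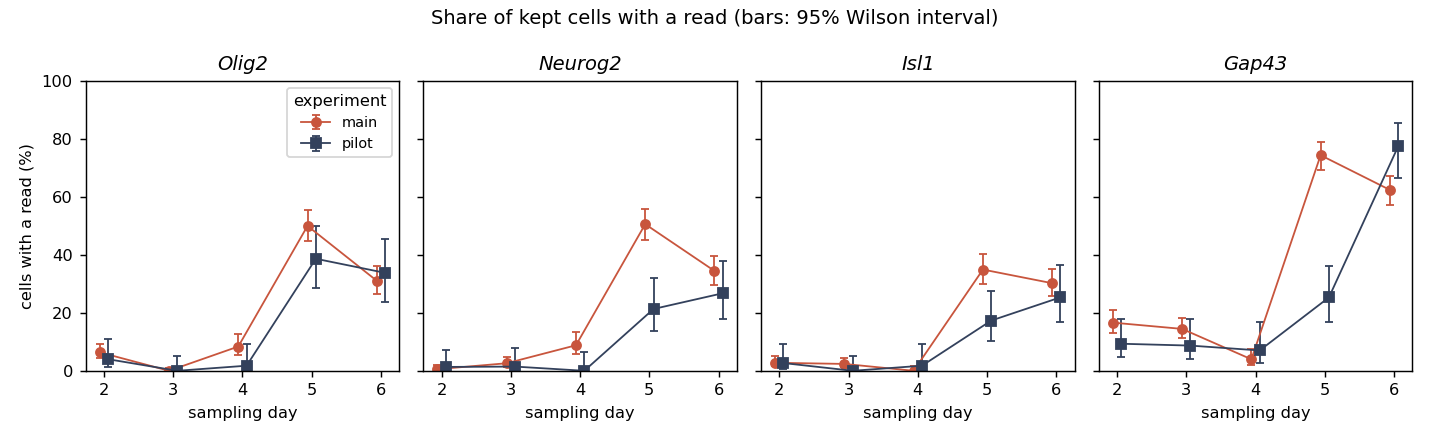
Share of kept cells with a read of Olig2, Neurog2, Isl1 and Gap43 (y axis, percent) by sampling day (x axis) in the main (circles) and pilot (squares) experiment, with 95% Wilson intervals as bars, which cover counting error only. All 4 shares are higher on Day 5 than on Day 4 in both experiments, and Gap43 reaches 77.5% of pilot cells on Day 6.

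Genes of the neuronal cytoskeleton and growth cone held the largest group of calls. Of 31 members, all tested, 6 rose, none fell and 27 were higher on Day 5 in both experiments, against 0.206% of all tested genes that rose and 29.1% that were higher in both, with medians of 1.69 and 2.099. In the main experiment alone 15 of the 31 rose (1.45% of all 12861 genes tested there). The 6 were Gap43, Stmn4, Stmn3, Tuba1a, Tubb2b and Stmn2.

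Gap43, a growth cone protein of extending axons, lies at chr16:42248442-42340651 (minus strand). It was at 0.0853, 3.65 and 7.94 CPM on the main Day 4 plates and at 224.4, 605, 537.3 and 501.7 on the main Day 5 plates, and at 0 and 0.0966 against 123.04 and 94.5 in the pilot experiment. The days lay far apart in both experiments, and the change was 7.87 ± 1.07 (edgeR adjusted p = 0.0109; 0.0503 without main Day 4 plate 2).

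The neuronal tubulins rose from a level already present on Day 4. Tubb2b, at chr13:34126748-34130466 (minus strand), went from 180.4, 186.6 and 261.2 to 608, 780.1, 1133 and 931 CPM in the main experiment and from 35.4 and 53.7 to 486.1 and 934 in the pilot (2.73 ± 0.39, edgeR adjusted p = 0.0109). Its rise was larger in the pilot than in the main experiment (day by experiment term 1.95, adjusted p = 0.0325). Tuba1a, the alpha-tubulin of young neurons, went from 67.6, 65.3 and 72.9 to 205.2, 311.6, 430.7 and 500.7 CPM and from 4.38 and 52.7 to 289.5 and 277.4 (2.73 ± 0.51, edgeR adjusted p = 0.0467). Several tubulin genes are near-identical copies, and reads that aligned to several places were not counted, so these values are uncertain. Tuba1a kept its call in 2 of 11 fits that left out a plate.

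The stathmins, which bind and release tubulin in growing axons, included 3 genes that rose. Stmn2, at chr3:8509360-8561606 (plus strand), went from 37.2, 9.17 and 11.3 to 128.3, 206.3, 91.5 and 216.3 CPM in the main experiment and from 20.4 and 12.7 to 69.5 and 64.4 in the pilot (2.67 ± 0.45, edgeR adjusted p = 0.0314). Stmn3 went from 6.57, 0 and 3.69 to 109.3, 125.6, 140.3 and 109.3 CPM and from 0.133 and 0 to 68.5 and 38.1 (edgeR adjusted p = 0.0486). Stmn4, named after its values were seen, was higher in the main experiment only: it was at 0.981, 0.104 and 0 CPM on Day 4 and 45.96, 37.1, 62.7 and 64.8 on Day 5 there, and at 0 on 3 of the 4 pilot plates with 0.0248 CPM on the other (joint 6.80 ± 1.15, edgeR adjusted p = 0.0314). Stmn2 and Stmn3 kept their calls in 3 and 1 of the 11 fits that left out a plate.

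Tubb3, the beta-tubulin that defines neurons, was at 35.2, 15.8 and 0 CPM on the main Day 4 plates and 90.1, 148.6, 109.2 and 154.3 on the main Day 5 plates, and at 0.0885 and 0.0242 against 47.98 and 52.9 in the pilot. It did not overlap between days in either experiment and did not pass (4.39 ± 1.40, edgeR adjusted p = 0.261), while the number of cells with a read of it rose (edgeR adjusted p = 1.82e-09). Dcx, a microtubule protein of migrating neurons, overlapped between the days (1.66, 0.312 and 20.7 CPM against 13.2, 15.2, 10.7 and 35.6 in the main experiment, edgeR adjusted p = 0.573).

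Synaptic vesicle and secretory granule genes had 17 of 23 members tested, 1 rise, no fall and medians of 1.70 and 5.06. Among all tested genes 0.206% rose. Members near 0 on Day 4, such as Sncg, could be tested only through Day 5, which raises the medians. Syt11, a synaptotagmin, went from 21.3, 19.4 and 20.1 to 72.5, 65.8, 72.6 and 84.5 CPM in the main experiment and from 2.43 and 6.64 to 76.7 and 55.3 in the pilot (2.56 ± 0.45, edgeR adjusted p = 0.0323). The days did not overlap. Syt11 kept its call in 1 of 11 fits that left out a plate. Scg5, which encodes a chaperone of prohormone convertase, and Sncg, a synuclein, stayed at edgeR adjusted p values of 0.0695 and 0.0823.

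Axon guidance and neuronal adhesion genes had 20 of 26 members tested, none called, and medians of 1.51 and 2.82. Cntn2, an adhesion protein of early axons, went from 0.683, 0 and 0 to 74.8, 109.6, 123.8 and 205.7 CPM in the main experiment, and from 0 and 13.99 to 50.01 and 87.5 in the pilot (joint edgeR adjusted p = 0.150; 0.00161 in the main experiment). Nrp1, a semaphorin receptor, gave an edgeR adjusted p of 0.143 and Dcc, a netrin receptor, 0.307.

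Neuronal RNA-binding and splicing factors had 17 of 18 tested, none called, and medians of 0.76 and 0.52. Elavl3, a neuronal mRNA-binding protein, went from 1.37, 3.33 and 4.98 to 35.7, 40.1, 40.6 and 66.04 CPM in the main experiment (edgeR adjusted p = 0.00515 there, 0.0661 jointly). Rbfox3 and Celf3, both splicing regulators, had joint edgeR adjusted p values of 0.0806 and 0.103.

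Ventral interneuron genes, markers of another neuron type, had 9 of 22 tested and none called, with medians of 2.91 over 9 genes (main experiment) and 4.58 over 6 (pilot). Members near 0 on Day 4, such as Lhx1, could be tested only through Day 5. The medians are raised by that selection and are not read as a rise. Their summed level was 6.46 to 11.1 CPM on the main Day 4 plates and 35.1 to 123.3 on the main Day 5 plates, and 1.74 and 32.2 against 26.3 and 54.7 in the pilot, with overlap there. Lhx1, a LIM factor of several interneuron classes, passed in the main experiment (edgeR adjusted p = 0.0230; 0.103 jointly), with 0, 0.208 and 0 against 6.77, 5.75, 41.9 and 3.98 CPM. Foxp2 and Bhlhe22 stayed under 24 CPM on every plate. The part of such cells in the changes of the neuronal lists was not tested.

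The interval from Day 4 to Day 5 was set beside the intervals on either side of it, in a fit of all plates of Days 2 to 6 without an eGFP label. The change minus that from Day 3 to Day 4 passed for 9 of 14479 genes (0.0622%), and the change minus that from Day 5 to Day 6 for none (0%), with 1173 at an unadjusted p under 0.05 and 2.47% called by DESeq2. The 2 changes in each contrast share plates, so a level that was high or low on Day 4 enters both changes of the former contrast. In levels scaled over all days, Stmn2 had a mean of 114.6 ± 104.4 CPM (SD, n = 5 plates) on main Day 3, 18.5 ± 15.3 (n = 3) on Day 4, 155.2 ± 59.4 (n = 4) on Day 5 and 857 ± 157.03 (n = 4) on Day 6. Tuba1a had means of 205.8 ± 30.6, 65.6 ± 2.94, 349.5 ± 126.4 and 1198 ± 542.7 CPM on the same days. Both thus had a lower mean on Day 4 than on Day 3 and a higher one again on Day 5, with a difference between the intervals of 4.99 ± 0.93 for Stmn2 and 4.78 ± 0.90 for Tuba1a (edgeR adjusted p = 0.0158 for each). Stmn2 was read in 73.96% of main Day 2 cells, 9.69% of main Day 4 cells and 38.6% of main Day 5 cells.

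Isl1 and Gap43 did not pass either contrast. Isl1 was at 0.558 ± 0.475, 0.806 ± 0.781, 0, 88.7 ± 27.2 and 187.2 ± 78.4 CPM on main Days 2 to 6, and its difference from the earlier interval gave an edgeR adjusted p of 0.0639 and from the later one 0.106. Gap43 was at 36.5 ± 12.7, 28.2 ± 21.9, 3.67 ± 3.69, 451.2 ± 163.2 and 1693 ± 161.1 CPM (edgeR adjusted p = 0.0639 and 0.373). In the pilot experiment Isl1 was at 16.5 ± 23.3 CPM on Day 2, from 1 of the 2 plates, and at 58.2 ± 35.4 on Day 5 (n = 2). Neurog2 was at 0.0729 ± 0.124, 10.6 ± 17.6, 26.7 ± 22.5, 118.7 ± 21.5 and 123.6 ± 39.02 CPM, so that its Day 5 and Day 6 levels differed by less than their spread. Olig2 was highest on Day 5, at 58.4 ± 13.9 CPM, against 40.1 ± 6.37 on Day 6.

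Genes of cholesterol and fatty acid synthesis stood out among the calls and were gathered into a list of 34 after the values had been seen, so their counts are a description. Of the 34, all tested, 4 rose (Acat2, Fdps, Scd2 and Slc25a1), none fell and 32 were higher on Day 5 in both experiments (29.1% of all tested genes were). Among all tested genes 0.206% rose. The medians were 1.02 (main experiment) and 1.13 (pilot). Their summed level was 1669.2 to 2463.1 CPM on the main Day 4 plates and 3904.3 to 5362.6 on the main Day 5 plates, and 2389.3 and 3454.1 against 4600.1 and 6416.2 in the pilot, without overlap.

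Scd2, a fatty acid desaturase of the developing brain, went from 138.5, 75.2 and 180.8 to 499.3, 566, 621 and 714 CPM in the main and from 186.6 and 301.4 to 537.3 and 828 in the pilot experiment (1.93 ± 0.27, edgeR adjusted p = 0.0109), and was called with any one left out of the 11 plates. Acat2, which makes the acetoacetyl-CoA that enters sterol synthesis, went from 31.6, 30.5 and 38.1 to 129.8, 153.2, 164.6 and 98.99 CPM and from 28.02 and 81.6 to 134.3 and 253.9 (edgeR adjusted p = 0.0238). Fdps, farnesyl diphosphate synthase, went from 315.6, 283.4 and 313.2 to 463.5, 742, 647 and 493.8 CPM and from 257.99 and 239.6 to 814 and 884 (edgeR adjusted p = 0.0238). Slc25a1, the carrier that exports citrate from mitochondria for lipid synthesis, went from 27.1, 24.7 and 56.9 to 103.3, 98.2, 139.02 and 136.2 CPM and from 28.5 and 44.5 to 280.2 and 168.7 (edgeR adjusted p = 0.0238). No plate of Day 5 fell within the range of Day 4 for these genes. Hmgcs1, the enzyme before the rate-limiting step, was at 371.1, 265.8 and 402.5 CPM on main Day 4 and 890.2, 1577, 1209 and 1142 on main Day 5 but overlapped in the pilot, with 1407 and 707 against 816 and 1609 (joint edgeR adjusted p = 0.197).

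Acat2, Fdps and Scd2 were also among the 9 genes whose change from Day 4 to Day 5 differed from that of the day before. Fdps had means of 1413 ± 389.5 CPM on main Day 3, 290.9 ± 18.2 on Day 4 and 566 ± 128.7 on Day 5, and 1471 ± 337.01, 245.6 ± 6.36 and 809 ± 42.4 in the pilot experiment. It was thus lower on Day 5 than on Day 3 in both experiments. The difference between intervals was 3.64 ± 0.43 for Fdps (edgeR adjusted p = 1.56e-05), 3.47 ± 0.50 for Scd2 (0.000578) and 3.19 ± 0.63 for Acat2 (0.0287).

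**Figure D4:**
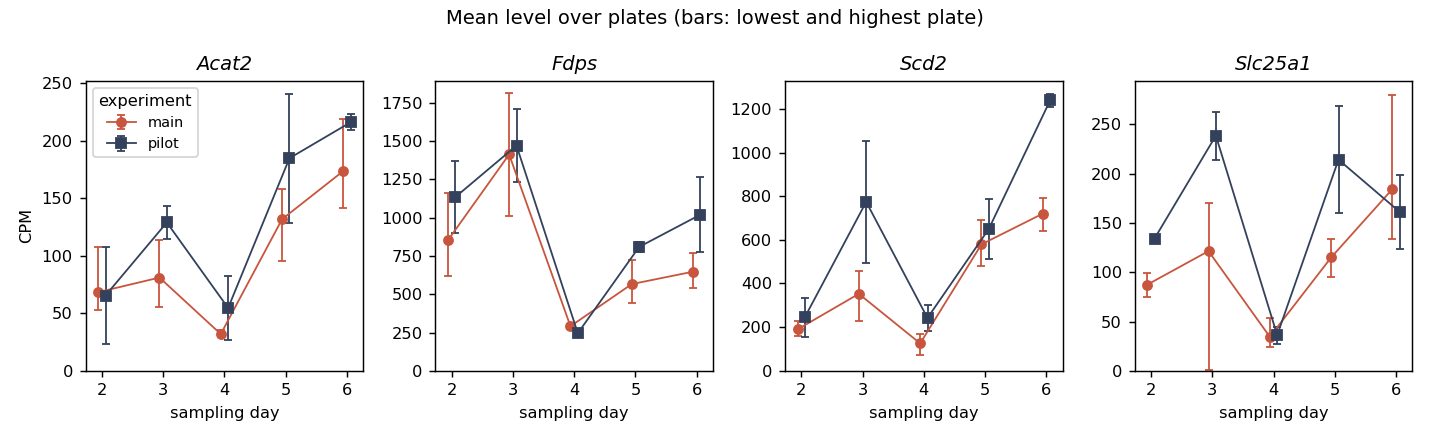
Mean level over plates in CPM (y axis) of Acat2, Fdps, Scd2 and Slc25a1 on Days 2 to 6 (x axis) in the main (circles) and pilot (squares) experiment, with bars from the lowest to the highest plate. Each gene has its lowest mean on Day 4 in both experiments, and a higher mean on Day 5.

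The promoters of Slc25a1 and Acat2 are printed because these genes rose together; both lie on the minus strand. The windows are chr16:17928220-17928469 for Slc25a1 and chr17:12960726-12960975 for Acat2 (GRCm38.p6, RefSeq), the 250 bases before the start. The capitals mark CCAAT read on the other strand of the Slc25a1 window. The Acat2 window holds none of the 4 motifs.

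Slc25a1: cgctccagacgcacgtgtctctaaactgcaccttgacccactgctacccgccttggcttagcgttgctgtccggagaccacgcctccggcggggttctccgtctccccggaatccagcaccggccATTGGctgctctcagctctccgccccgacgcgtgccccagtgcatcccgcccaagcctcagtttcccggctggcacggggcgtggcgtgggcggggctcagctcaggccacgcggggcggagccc
Acat2: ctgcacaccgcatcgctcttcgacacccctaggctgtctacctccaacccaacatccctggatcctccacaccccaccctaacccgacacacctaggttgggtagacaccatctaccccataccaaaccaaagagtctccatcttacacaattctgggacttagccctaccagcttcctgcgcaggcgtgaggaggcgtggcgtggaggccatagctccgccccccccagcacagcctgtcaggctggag

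Of the 34 genes of lipid synthesis, 23 had a window, and CCAAT on either strand stood in 18 of these (78.26%), against 37.49% of all genes. TCACNCCAC stood in 1 of the 23 (4.348%, against 1.225%). Among the 25 genes that rose, 13 had a window and 6 of them held CCAAT (46.15%), 2 held CAGCTG and 2 held CAGATG. A match says only that the letters are in the window.

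Hox genes set position along the spinal cord, and 1 member of the 3 Hox lists rose. Of the genes of groups 4 and 5, 7 were tested, with medians of 1.13 and 3.11. Of the 7, 1 rose and 6 were higher in both experiments (0.206% and 29.1% of all tested genes). Hoxd4 went from 30.7, 18.2 and 69.2 to 121.1, 190.03, 225.2 and 182.8 CPM in the main and from 21.7 and 20.8 to 64.8 and 180.6 in the pilot experiment (2.32 ± 0.39, edgeR adjusted p = 0.0308). The annotated Hoxd4 lies within Hoxd3 on the same strand, so reads of the pair may be mixed, and Hoxd3 itself gave 2.34 ± 0.89 (edgeR adjusted p = 0.361). Hoxa5 and Hoxb5 did not pass (0.200 and 0.197).

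Hox genes of groups 6 to 10 had 6 of 15 members tested, none called, with medians of 1.75 and 3.87. All 6 were higher in both experiments (29.1% of all tested genes were). Hoxb8 went from 13.5, 13.1 and 9.14 to 48.2, 83.9, 99.7 and 107.5 CPM in the main experiment (edgeR adjusted p = 0.00411 there and 0.181 jointly), and Hoxb6 and Hoxc6 gave 0.391 and 0.505 jointly. Groups 1 to 3 had 7 of 8 tested, none called, and medians of 0.58 and 1.48. Hoxa3 was at 8.06, 21.04 and 10.9 CPM on main Day 4 and 49.6, 51.4, 47.6 and 69.3 on main Day 5 (3.58 ± 1.16, edgeR adjusted p = 0.276).

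Retinoic acid, which gives neural cells a caudal identity, is bound and broken down by proteins of which some were higher on Day 5 and some lower. Of 18 such carriers, enzymes, receptors and partners, 16 were tested and 2 rose (0.206% of all tested genes did), with medians of 0.17 and 1.02. Cyp26b1, which breaks retinoic acid down, was among the 2 and went from 29.2, 15.2 and 45.2 to 109.5, 140.9, 207.02 and 205.3 CPM on the main plates and from 21.02 and 57.04 to 108.4 and 159.8 on the pilot plates (2.21 ± 0.38, edgeR adjusted p = 0.0320). Its relative Cyp26a1 was lower on every main Day 5 plate, at 305.8, 234.3 and 222.4 against 166.2, 130.7, 108.7 and 109.3 CPM, and fell in the main experiment alone (edgeR adjusted p = 0.0367), while the joint fit gave -0.75 ± 0.21 (0.197).

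Of the rises outside these lists, Ckb and Fabp5 had the smallest p-values. Ckb, brain-type creatine kinase at chr12:111669361-111672338 (minus strand), went from 97.1, 95.8 and 239.6 to 591, 756, 809.8 and 621 CPM in the main and from 70.2 and 66.6 to 327.96 and 377.8 in the pilot experiment (2.30 ± 0.26, edgeR adjusted p = 0.00340). Fabp5, a fatty acid carrier, went from 86.6, 79.6 and 109.5 to 291.1, 403.9, 421.9 and 351.9 CPM and from 103.1 and 94.9 to 263.8 and 358.8 (1.87 ± 0.20, edgeR adjusted p = 0.00227). Cotl1, an actin-binding protein, and Pcbp4, an RNA-binding protein, rose by 2.08 and 2.05 (edgeR adjusted p = 0.0143 and 0.0238). The remaining rises, named after their values were seen, were Nnat, Dtx4, Metrn, Nr2f1, Tshz1 and Fscn1, with changes from 1.33 to 1.68.

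Fabp3, Txnip and Apoe were among the largest of the 13 falls. Txnip, an inhibitor of thioredoxin and of glucose uptake at chr3:96557957-96561883 (plus strand), went from 219.8, 190.4 and 250.5 to 57.3, 56.9, 33.2 and 43.9 CPM in the main experiment and from 1245 and 729 to 107.7 and 30.8 in the pilot (-2.80 ± 0.40, edgeR adjusted p = 0.0109). It was called with any one left out of the 11 plates. On the scale of all days it stood at 173.2 ± 102.8 CPM on main Day 3, 210.5 ± 26.5 on Day 4 and 46.2 ± 11.3 on Day 5, and at 219.2 ± 114.7, 970.4 ± 334.5 and 66.2 ± 52.3 in the pilot. Its change also differed from that of the day before (-4.05 ± 0.72, edgeR adjusted p = 0.00919).

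Apoe, a lipid carrier made by many cell types, went from 190.1, 226.1 and 304.4 to 42.6, 19.7, 18.7 and 42.5 CPM in the main and from 103.4 and 227.1 to 58.03 and 23.003 in the pilot experiment (-2.62 ± 0.38, edgeR adjusted p = 0.0119; 0.0503 without main Day 4 plate 2). It was read in 73.1% of main Day 4 and 34.6% of main Day 5 cells, and in 49.1% and 37.3% of pilot cells, where the plates overlapped (45.8 and 51.5% against 50% and 24.3%). Apoe was on the list of endoderm and basement membrane genes, which had 9 of 15 members tested and 1 fall (0.107% of all tested genes fell). Their summed level was 671.94 to 962.79 CPM on the main Day 4 plates and 139.34 to 405.95 on the main Day 5 plates, and 431.82 and 810.53 against 258.84 and 287.18 in the pilot. Afp, a defining endoderm gene, was at 0 on 10 of the 11 plates, with 0.384 CPM on the other. Lamb1, a laminin chain, and Dab2, an endocytic adaptor, did not pass (0.254 and 0.455). Whether cells of that kind have a part in the fall of Apoe was not tested.

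Fabp3, a fatty acid carrier, spread widely over the Day 4 plates, at 207.95, 115.8 and 39.9 CPM (main) and 1881 and 103.3 (pilot), against 3.58, 13.7, 6.89 and 7.31 and 128.1 and 18.2 on Day 5 (-3.88 ± 0.73, edgeR adjusted p = 0.0485). The days overlapped in the pilot experiment. Fabp3 kept its call in 1 of 11 fits that left out a plate, and its highest value came from the plate on which 1 cell gave 41.2% of reads. Grb7, an adaptor of receptor tyrosine kinases, went from 194.002, 184.04 and 84.7 to 51.6, 36.1, 21.4 and 23.1 CPM and from 164.5 and 158.1 to 32.6 and 28.3 (-2.29 ± 0.31, edgeR adjusted p = 0.0109). Sfmbt2, a Polycomb protein gene, went from 103.6, 70.3 and 46.2 to 19.2, 19.1, 13.3 and 14.7 CPM and from 179.3 and 112.2 to 24.1 and 13.2 (-2.45 ± 0.34, edgeR adjusted p = 0.0109). Sepp1, a selenium carrier, Upp1, uridine phosphorylase, and Wdr81 fell by 2.53, 2.12 and 2.26 on the log2 scale. The other falls, named after their values were seen, were Pmm1, Mt2, Sypl, Gm13154 and an entry named only uc009vey.1.

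Pluripotency and epiblast genes had 27 of 30 members tested and none called, with medians of -1.99 (main experiment) and -0.84 (pilot). Of the 27, 16 were lower on Day 5 in both experiments (25.2% of all tested genes were). In the fit of cells with a read, 5 of 12 tested members fell and 1 rose (6.62% and 6.01% of all 8389 genes there). Dppa5a, an RNA-binding protein of pluripotent cells, went from 798, 231.9 and 94.1 to 16.9, 55.7, 6.71 and 5.45 CPM in the main and from 171.8 and 389.03 to 127.8 and 97.1 in the pilot experiment (-3.19 ± 0.82, edgeR adjusted p = 0.147; 0.0383 in the main experiment). It was read in 70.9% of main Day 4 and 11.4% of main Day 5 cells, and in 40.4% and 45.3% of pilot cells. Pou5f1, the defining factor, was read in 18.1% of main Day 4 and 0.904% of main Day 5 cells, and in 9 of 57 and 11 of 75 pilot cells. The pilot plates of the 2 days overlapped in both shares. With each cell thinned to 10000 reads, the pilot shares were 24.6% and 18.7% for Dppa5a and 8.77% and 8% for Pou5f1. Sall4 and Dnmt3b gave changes of -1.07 ± 0.26 and -1.64 ± 0.45 (edgeR adjusted p = 0.109 and 0.181).

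Cell cycle genes showed no call. DNA replication and S phase genes, 21 of 21 tested, had medians of 0.31 and 0.23, and Pcna, a replication clamp, was at 414.9, 532.8 and 499.4 CPM on main Day 4 and 649, 614, 775 and 574 on main Day 5 (edgeR adjusted p = 0.437). Ccne2 gave 0.460. G2 and mitosis genes, 20 of 20 tested, had medians of -0.14 and 0.06, with Ccnb2, Cdc20 and Ccnb1 at edgeR adjusted p values of 0.236, 0.541 and 0.590. Genes of cell cycle exit and D cyclins, 13 of 14 tested, had medians of 0.55 and -0.69, and Btg1, Ccnd2 and Cdkn2d gave 0.380, 0.574 and 0.603.

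Chromatin genes that switch in neurons had 16 of 18 tested, none called, with medians of 0.54 and 0.46. Ezh2, the Polycomb methyltransferase, gave 0.77 ± 0.23 (edgeR adjusted p = 0.227), and Dpf1 and Rcor2 gave 0.276 and 0.460. Glycolytic enzymes and glucose transporters had 16 of 17 tested, none called in the joint fit. There 6 were higher and 3 lower at an unadjusted p under 0.05 (685 and 599 of all 12163 tested genes). In the main experiment alone 5 rose and none fell (1.45% and 1.14% of all genes tested there). The medians were 0.34 and -0.01. Pfkl, phosphofructokinase, was at 14.5, 14.9 and 23.1 CPM on main Day 4 and 51.2, 37.996, 53.1 and 45.3 on main Day 5 (joint edgeR adjusted p = 0.181). Pkm and Ldha, read in 87.9 to 100% of the cells of every plate, gave joint changes of 0.68 ± 0.19 and 0.54 ± 0.16 (edgeR adjusted p = 0.197 and 0.227). In the fit of cells with a read, 1 of the 16 passed as higher and 8 as lower (6.01% and 6.62% of all 8389 genes there). Those 8, Pgam1 the lowest among them, were each read in at least 70.8% of the cells of every plate. That fit is scaled to all detections of a plate, and the part of this scaling in the 8 falls was not tested.

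Genes that answer to dissociation and handling, 12 tested, had no call and medians of -0.22 and -0.87. Fos came closest, at 126.3, 112.9 and 220.3 CPM on main Day 4 and 35.6, 27.5, 30.8 and 28.1 on main Day 5, and at 738 and 48.8 against 27.4 and 21.9 in the pilot (-2.94 ± 0.57, edgeR adjusted p = 0.0530). Fos fell in the main experiment alone (edgeR adjusted p = 0.00411). Ier2 and Fosb gave 0.164 and 0.413. The p53 targets, 13 of 14 tested, had no call and medians of 0.37 and -0.42, with Trp53inp1, Bbc3 and Zmat3 at edgeR adjusted p values of 0.460, 0.478 and 0.653.

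Neural crest, mesoderm and glial markers were few and low. Of 13 neural crest genes 4 were tested, of 14 mesoderm and muscle genes 4, and of 9 glial genes 3, and none was called. Their summed levels on the 7 main plates ranged from 5.09 to 42.6 CPM, from 6.29 to 109.3 CPM and from 14.8 to 52.8 CPM, with overlap between the days in each. On the pilot plates they were 0.242 and 58.3 CPM on Day 4 against 3.59 and 21.2 on Day 5 (crest), 41.7 and 46.6 against 3.54 and 5.05 (mesoderm) and 5.36 and 27.4 against 22.999 and 44.3 (glia), so that the mesoderm list was lower on both pilot Day 5 plates. Snai2, Wnt1 and Ets1 of the crest list, Col1a1, Twist1 and Acta2 of the mesoderm list and Mbp, Nfia and Nfib of the glial list had edgeR adjusted p values from 0.492 (Snai2) to 0.987 (Nfib).

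**Figure D5:**
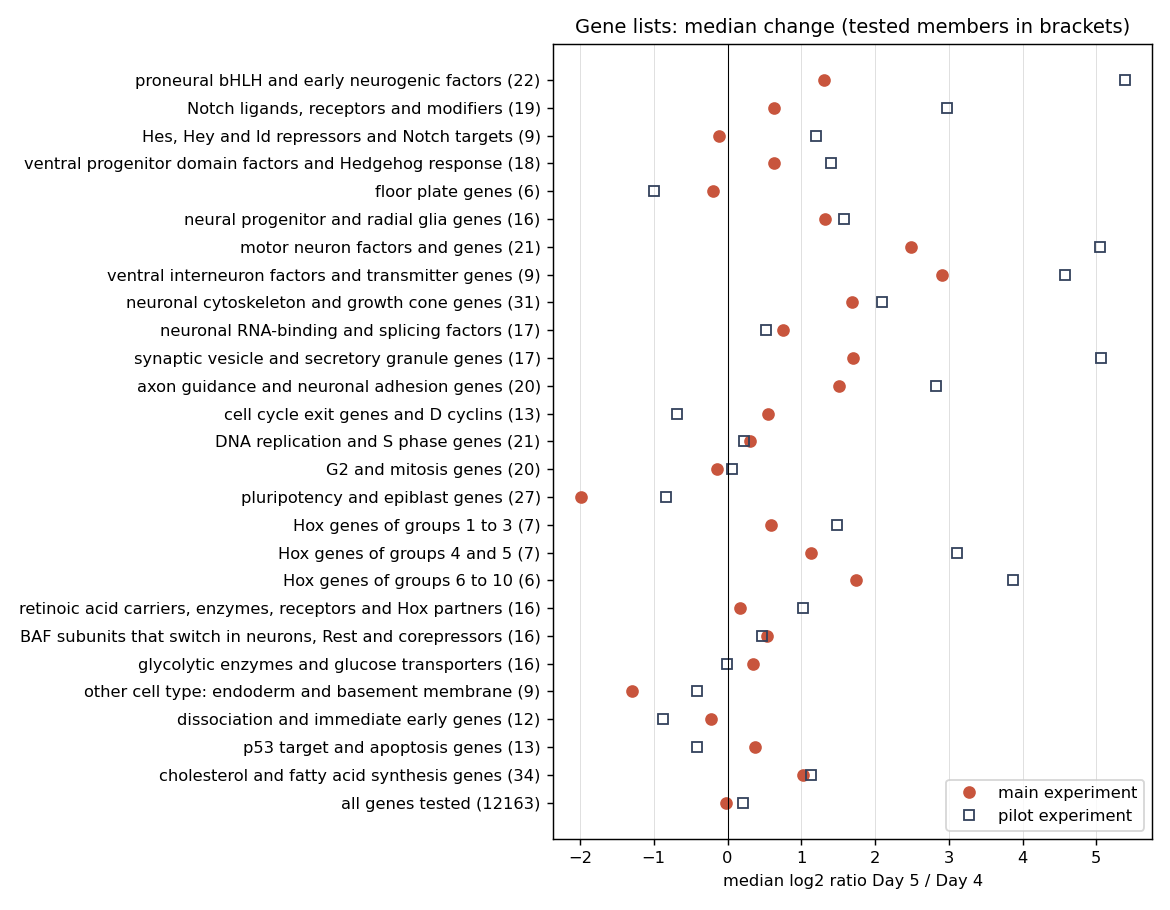
Median log2 ratio of Day 5 to Day 4 (x axis) over the tested members of each gene list with at least 6 of them (y axis, number tested in brackets), in the main (circles) and pilot (squares) experiment, with all 12163 tested genes in the bottom row. Motor neuron, interneuron, cytoskeleton and secretory genes lie above the row of all genes in both experiments and pluripotency genes below it, and the pilot value of several neurogenic lists exceeds the main value by over 2.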

How the data were processed

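The deposited tables hold raw counts per gene and cell, not normalized by the authors, who counted reads and not molecules. The submitters' processing notes name TopHat2 2.1.1, HTSeq 0.6.1 and the mm10 build. The annotation, the use of strand and the handling of duplicates are not given in the sources used here, so overlapping and antisense genes cannot be told apart. Of all reads in the tables used, 35.6% stood in lines that name no gene (26.2% not unique, 7.33% without a feature, 2.06% ambiguous) and were left out. A further table with 40 columns matched no sample and was not used. Gene coordinates are from the GENCODE annotation of GRCm38. Promoter windows are from RefSeq, and those of Isl1 and Neurog2 each include the first base of the gene as given by GENCODE. The source of this overlap was not examined.

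The members and gene lists were chosen with earlier results of these data known. Cells with reads on at least 500 genes, spike-ins not counted, were kept and their counts summed per plate. No pair of kept cells held identical counts. Doublets were not called, since cells were sorted singly. edgeR 4.0.16 in R 4.3.3, with limma 3.58.1, tested Day 5 against Day 4 with glmQLFit and glmQLFTest (filterByExpr, TMM scaling, experiment as a block, two-sided, Benjamini-Hochberg). DESeq2 1.42.0 was an alternative. Plate measures were tested by exact permutation over 210 arrangements, and the tables were made with Python 3.11.15. The same-experiment plates of the 2 days deviated together (r = 0.183 over 12163 genes), with experiment taken from the labels. On simulated counts of this comparison (12163 genes), 0, 16, 37 and 42 of 50 genes were called at 2, 4, 16 and 64-fold, and 1 of 11963 unchanged genes. The simulation gave both experiments the same fold, drew plates independently and used the trended dispersion. In the data 7.27% of genes differed between experiments and plates may share a culture, so these counts may not hold there.

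Named genes were Isl1, Gap43 and Neurog2, the 12 largest rises and 8 largest falls that passed, moved one way in both experiments, averaged at least 20 CPM on the higher day and had an established name, and up to 3 members of each list with the smallest p. Other genes named are the markers of the cell types, or are said to have been chosen after their values were seen. Hmgcs1, Fabp5, Scd2, Acat2, Fdps and Slc25a1 were also chosen in that way. A few genes that this rule names are not reported here. The alternatives were another scaling, DESeq2, no low-count filter, no replicate block, each plate left out, each experiment alone, all days, sums per experiment, other cell filters, thinned cells and cells with a read.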

Additional observations from a re-analysis of the deposited data

Results flagged for a closer look

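In the main Day 5 group, 1 plate of 4 stood apart from the other 3 for 16 of the 130 values tested, where chance flags about 1 in 20 groups. Plate 4 was high in detected genes per cell (4246 against 3492 to 3578), Spon1 (14.55 CPM), Foxp2 (20.13), Bhlhe22 (23.59), Elavl3 (66.04) and Chat (2.821). Plate 3 was high in Foxn4 (66.45 CPM) and Lhx1 (41.87). Plate 1 was high in Sepp1 (33.61 CPM), Dab2 (5.983), Acta2 (95.5) and Nkx6-1 (14.15) and low in Tshz1 (120.8) and Isl2 (2.348). Plate 2, on which 1 cell gave 23.7% of reads, was high in Nfib (34.93 CPM) and in Pou5f1 (6.022 against 0 on the other plates).

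The change from Day 4 to Day 5 was larger in the pilot than in the main experiment for several named genes, by edgeR's test of the difference itself. The log2 difference was 12.11 for Neurog2, 7.206 for Olig2, 8.341 for Nhlh2, 8.972 for Mfng, 9.228 for Nrarp, 7.554 for Hoxa3, 7.491 for Celf3, 4.974 for Elavl3, 1.951 for Tubb2b and 1.677 for Pcbp4. Values for genes at 0 on pilot Day 4, which were Neurog2, Nrarp and Celf3, depend on the prior count. Olig2, Nhlh2, Mfng, Hoxa3 and Elavl3 had pilot Day 4 means of at most 0.0429 CPM on the scale of all days. The pilot Day 4 plates kept 24 and 33 cells, with medians of 1292 and 1409 detected genes. The part of this low detection in the differences was not tested.

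The change from Day 4 to Day 5 differed from that of Day 3 to Day 4 by 4.784 for Tuba1a, 4.987 for Stmn2, 3.189 for Acat2, 3.639 for Fdps, 3.468 for Scd2 and -4.052 for Txnip.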

How the results depend on the processing

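The 38 calls (0.312% of genes tested) became 26 (0.214%) with no replicate block, 41 with RLE scaling, 52 without the low-count filter, 52 with all days in the fit (17 of the 38 among them), 32 with cells of at least 1000 genes and 39 with all cells. The share called was 4.63% by DESeq2, which shared 37 of the 38, 2.58% in the main experiment alone, 2.25% with thinned cells and 12.6% for cells with a read. It was 0% both in the pilot experiment alone and for sums per experiment, with 1425 and 671 genes at an unadjusted p under 0.05. With each plate left out the count ranged from 5 (0.04%) to 82 (0.65%): 5 without main Day 4 plate 2, 20 without plate 1, 22, 14, 14 and 17 without main Day 5 plates 1 to 4, 76 and 82 without pilot Day 4 plates 1 and 2, and 15 without pilot Day 5 plate 2. Without the 2 Day 4 plates with many empty wells, an alternative chosen after seeing the data, it was 55 (44 rises and 11 falls), of which 23 were among the 38. For the change minus that from Day 3 to Day 4, the share of 0.0622% became 3.33% by DESeq2, 0.207% in the main experiment alone and 1.73% for cells with a read. For the change minus that from Day 5 to Day 6, the share of 0% became 2.47%, 0.0467% and 1.92%. In the fit of cells with a read, Pkm and Ldha had values of the opposite sign (-0.42 and -0.41, edgeR adjusted p = 0.00349 and 0.0055). Both were read in nearly every cell. The part of the scaling of this count in these values was not tested, and they are not read as a reversal. Rises made up 25 of the 38 calls, while in the fit of cells with a read 6.01% of genes rose and 6.62% fell.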

Other observations

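Among the kept main Day 5 cells, 77 (23.19%) had a read of both Neurog2 and Isl1, 91 (27.41%) of Neurog2 without Isl1, 39 (11.75%) of Isl1 without Neurog2 and 37.65% of neither. Olig2, the progenitor factor, was read in 71.43% of the cells with both, 56.04% of those with Neurog2 alone, 43.59% of those with Isl1 alone and 34.4% of those with neither. Cntn2, the axonal adhesion gene, was read in 66.23% of the cells with both and 66.67% of those with Isl1 alone, against 26.37% with Neurog2 alone and 20% with neither. Mki67, a gene of cycling cells, was read in 38.46% of the cells with Isl1 alone and 61.04% of those with both, against 62.64% with Neurog2 alone and 55.2% with neither. These cells share 4 plates and differ in depth, so the shares are descriptions without a test. The pilot Day 5 cells held 7 cells with both, 9 with Neurog2 alone, 6 with Isl1 alone and 53 with neither. Mki67 was read in 28.57%, 77.78%, 16.67% and 60.38% of them in that order.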
